A study of Homo sapiens with 12 samples.

Results

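Mitosis and its preparation in G2 were followed through 40 genes, in 9 groups by role: kinases, cyclins with the phosphatase CDC25C, anaphase regulators, kinetochore and checkpoint genes, kinesins, chromosomal passengers, spindle assembly factors, cytokinesis genes, and FOXM1 with TOP2A. They are 40 of the 19775 genes that the arrays represent with a probe set of 1 gene symbol. Each gene was read from its brightest such probe set, and 39 reached the level set for testing (4 on the log2 scale, on 3 arrays or more), as did 10784 genes in all. INCENP, the scaffold of the chromosomal passenger complex, was the member left out: its single probe set read 1.93 to 2.72 on the 12 arrays. The filter did not choose among the other members, whose lowest value on any array was 6.44.

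The cells were HK-2, an immortalized human line of proximal tubular epithelium, grown with EGF, insulin and hydrocortisone, seeded 24 h before treatment and treated near confluence. There were 4 groups of 3 arrays: Fk for 48 h, its control for 48 h, Fk for 12 h, and its control for 12 h. The labels do not expand the name Fk and give neither dose nor vehicle, and they call the 3 cultures of a group biological replicates. The titles call the controls control samples, and the word vehicle below stands for these control cultures. All values are GCRMA log2 values, on which a difference of 1 is a doubling. Of 15 measured renal epithelial markers, PAX8, KRT8, KRT18, KRT19 and CDH2 were above 4 on all 12 arrays, while 8, among them LRP2, CUBN, AQP1 and SLC34A1, stayed below 4 on every array, so these genes of the mature proximal tubule were not detected. Of 10 measured markers of other kidney cell types, 7 stayed below 4 on every array. Of the other 3, COL1A1 read 7.41 to 8.88, AQP2 read 4.18 to 4.33, above 4 on all 12 arrays, and PECAM1 read 3.37 to 4.59, above 4 on 6 arrays.

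A dividing cell makes most of these transcripts only in S, G2 and M phase, so their level in a culture follows the share of its cells in cycle. In cells that leave the cycle, the DREAM complex of the MuvB core with the RB-like proteins and E2F4 represses them. In cycling cells the same core joins MYBL2 and then FOXM1 and activates them, through a promoter element called the cell cycle genes homology region (CHR) and nearby CCAAT boxes bound by NF-Y. CDK1 with cyclin B starts mitosis, the checkpoint kinases hold anaphase until every kinetochore is attached, and the anaphase-promoting complex then ends it.

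All 39 tested members were lower at 48 h than at 12 h, both with Fk and with vehicle, and no member passed the test between Fk and vehicle at either time. In Fk cultures 35 of 39 fell and 0 rose by limma at an adjusted p of 0.05, where 11.7% of all genes fell and 11.5% rose. In control cultures 28 fell and 0 rose, where 10.9% of all genes fell and 10.6% rose. The median member changed by -1.36 with Fk and by -1.18 with vehicle, against a median over all genes of 0.01 in control cultures. Arrays of the later and the earlier time did not overlap for 37 members with Fk and for all 39 with vehicle, against 19.7% and 24.9% of all genes lower without overlap. Of the members, 27 fell in both conditions, which is 27 of the 35 with Fk and of the 28 with vehicle, and 3, UBE2C, CENPF and ECT2, in neither. In bulk RNA, fewer dividing cells and less RNA per dividing cell cannot be told apart. The time courses share no array. Members had 76 probe sets, 68 of them past the level, and all 68 were lower at 48 h in both conditions.

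**Figure D1:**
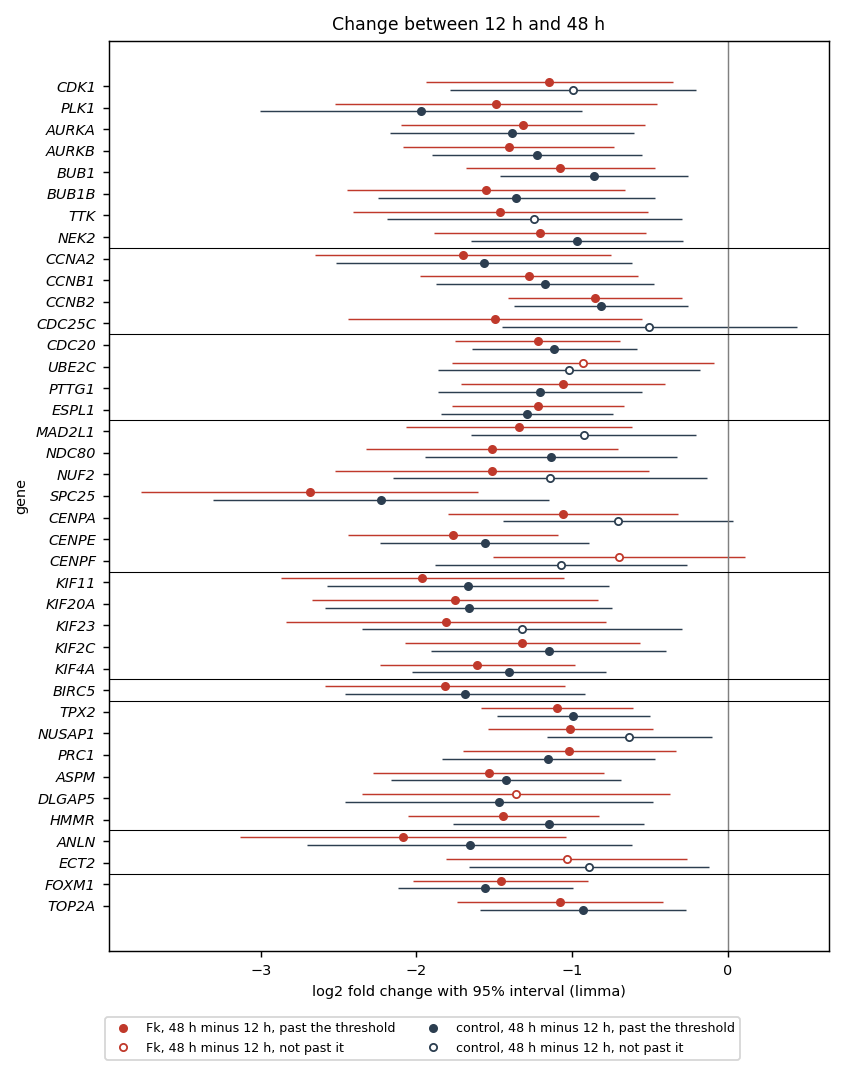
Change of each of 39 members between 12 h and 48 h on the log2 scale (x axis), with 95% intervals of limma, in Fk (red, upper) and control cultures (dark, lower). Filled points passed an adjusted p of 0.05, and every point lies below 0, from -2.69 (SPC25 with Fk) to -0.50 (CDC25C with vehicle).

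Since the members moved together, their promoters were read for the elements that MuvB and NF-Y bind. RefSeq windows from 250 bases before to 50 after a gene's start (GRCh38.p14) were found for 34 members, and not for AURKA, TTK, TPX2, BIRC5, FOXM1 and UBE2C. The windows printed here belong to the 4 members with the smallest p in the control time course that have an entry (ESPL1, CENPE, KIF4A and CDC20), to the member with the largest p (CDC25C), and to CDK1 and PLK1. They lie at chr12:53268049-53268348 (ESPL1, plus strand), chr4:103198294-103198593 (CENPE, minus), chrX:70289854-70290153 (KIF4A, plus), chr1:43358731-43359030 (CDC20, plus), chr5:138338306-138338605 (CDC25C, minus), chr10:60778081-60778380 (CDK1, plus) and chr16:23678639-23678938 (PLK1, plus). Each runs 5′ to 3′ on the gene's strand, with CHR elements and CCAAT boxes of either strand in capitals. A CHR element was taken to be TTTGAA, with the variant spelling TTCGAA allowed, and the box to be CCAAT.
ESPL1: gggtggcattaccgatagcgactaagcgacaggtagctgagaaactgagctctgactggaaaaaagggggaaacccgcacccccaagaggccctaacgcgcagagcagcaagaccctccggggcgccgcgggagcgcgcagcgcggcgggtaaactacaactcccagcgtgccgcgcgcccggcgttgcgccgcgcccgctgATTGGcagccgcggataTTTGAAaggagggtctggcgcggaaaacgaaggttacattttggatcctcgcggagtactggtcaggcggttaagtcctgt
CENPE: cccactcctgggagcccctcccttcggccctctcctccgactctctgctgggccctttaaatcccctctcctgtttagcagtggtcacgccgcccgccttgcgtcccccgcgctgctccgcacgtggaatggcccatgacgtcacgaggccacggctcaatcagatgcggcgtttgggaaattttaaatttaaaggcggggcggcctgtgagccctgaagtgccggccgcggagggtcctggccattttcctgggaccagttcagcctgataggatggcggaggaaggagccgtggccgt
KIF4A: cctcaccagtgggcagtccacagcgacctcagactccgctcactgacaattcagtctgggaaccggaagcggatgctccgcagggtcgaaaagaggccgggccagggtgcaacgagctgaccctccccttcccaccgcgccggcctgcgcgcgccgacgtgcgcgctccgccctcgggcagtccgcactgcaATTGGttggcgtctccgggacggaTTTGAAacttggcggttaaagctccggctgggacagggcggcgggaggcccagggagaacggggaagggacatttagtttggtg
CDC20: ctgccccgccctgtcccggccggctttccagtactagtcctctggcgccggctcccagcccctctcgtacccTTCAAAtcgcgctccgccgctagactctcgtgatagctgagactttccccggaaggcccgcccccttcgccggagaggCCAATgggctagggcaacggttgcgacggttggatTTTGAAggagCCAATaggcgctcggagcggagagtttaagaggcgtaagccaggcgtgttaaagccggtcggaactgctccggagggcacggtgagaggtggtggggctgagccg
CDC25C: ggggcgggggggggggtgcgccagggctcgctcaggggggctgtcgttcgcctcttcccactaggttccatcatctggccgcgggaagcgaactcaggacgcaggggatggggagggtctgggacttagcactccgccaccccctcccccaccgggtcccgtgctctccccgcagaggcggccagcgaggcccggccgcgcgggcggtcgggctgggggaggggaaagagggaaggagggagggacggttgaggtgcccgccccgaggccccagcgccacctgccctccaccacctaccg
CDK1: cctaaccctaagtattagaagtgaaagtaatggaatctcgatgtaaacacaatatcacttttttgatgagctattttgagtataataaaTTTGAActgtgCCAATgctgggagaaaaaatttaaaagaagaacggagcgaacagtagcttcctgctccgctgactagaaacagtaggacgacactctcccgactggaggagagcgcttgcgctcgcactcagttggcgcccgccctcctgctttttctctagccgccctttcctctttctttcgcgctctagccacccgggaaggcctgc
PLK1: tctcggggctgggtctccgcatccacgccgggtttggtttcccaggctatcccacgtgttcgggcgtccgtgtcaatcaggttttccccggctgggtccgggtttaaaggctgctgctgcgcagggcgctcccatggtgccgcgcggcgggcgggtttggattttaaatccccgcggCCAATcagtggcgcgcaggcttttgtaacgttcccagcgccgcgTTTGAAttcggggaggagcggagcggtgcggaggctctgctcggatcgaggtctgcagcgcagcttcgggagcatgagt

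ESPL1, KIF4A and PLK1 share a layout, with a CCAAT box upstream of a CHR element close to the start. The CHR element begins at position -31 in ESPL1, -34 in KIF4A and -29 in PLK1, and the box at -48, -58 and -73, counted from the first transcribed base. CDC20 has elements at -178 and -65 with boxes at -100 and -55, and CDK1 has them farther upstream, at -161 and -150, with an E2F site at 20. CENPE and CDC25C hold neither in these windows. CDC25C has 4 listed starts and CDK1 2, of which the first is shown. CDC25C holds both a CHR element and a CCAAT box in the windows of 2 other listed starts, the second and the fourth. The window of the second CDK1 start holds 3 CHR elements and 2 CCAAT boxes.

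A CHR element was found in 25 of the 34 members (73.5%), against 11.0% of the 8921 tested genes with a window, and a CCAAT box in 27 (79.4%), against 37.4%. Both were found in 21 members (61.8%), against 4.74% of tested genes. The E2F site, spelled TTTCCCGC, TTTCGCGC, TTTGCCGC or TTTGGCGC on either strand, was found in 3 members (8.82%), against 5.57%. Matches whose letters overlap were each counted. Of the 34 CHR elements 23 began within 50 bases of the start, with a median position of -27, and the median CCAAT box began at -71. DNA replication and G1/S genes showed another pattern, with a CHR element in 5.26% and an E2F site in 55.3% of 38 genes. Among members that fell in control cultures, a CHR element was in 16 of 24 (66.7%), both motifs in 13 (54.2%) and an E2F site in 0. Among the 9 with a window that did not pass, a CHR element was in 8 (88.9%), both motifs in 7 (77.8%) and an E2F site in 3 (33.3%), which were CDK1, CENPA and NUSAP1. These shares were not tested against each other. A match describes letters in a window and does not show binding.

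**Figure D2:**
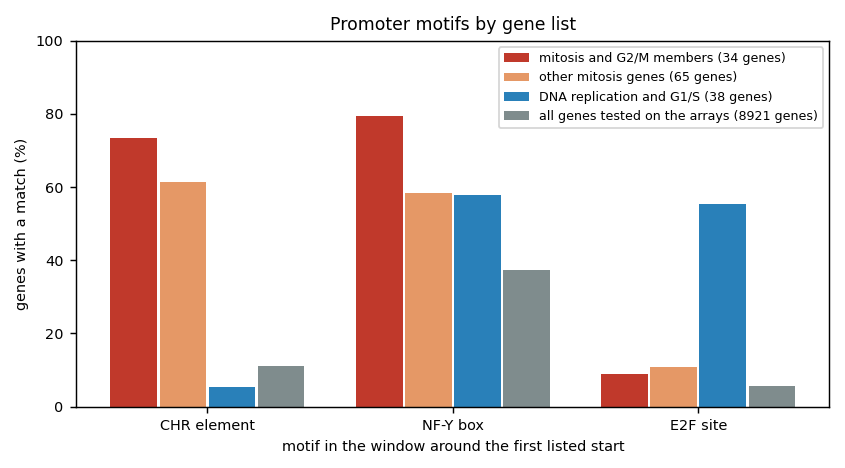
Share of genes (y axis, percent) whose 300-base window at the first listed start holds a CHR element, an NF-Y (CCAAT) box or an E2F site, for 34 members, 65 other mitosis genes, 38 DNA replication and G1/S genes, and 8921 tested genes. CHR elements were in 73.5% of members, 61.5% of other mitosis genes and 11.0% of tested genes. E2F sites were in 55.3% of DNA replication genes and 8.82% of members.

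For each of the 8 mitotic kinases, the arrays of the 2 times did not overlap in either condition. With Fk 8 of 8 fell, with a median change of -1.36, and with vehicle 6 of 8, with a median of -1.24. PLK1, a kinase needed for mitotic entry, spindle formation and cytokinesis, had the largest change of the kinases in control cultures. At 48 h it read 7.46, 7.66 and 8.60 in Fk cultures (replicates 1 to 3, here and below) and 6.44, 7.04 and 8.55 in control cultures. At 12 h it read 9.28, 9.38 and 9.52 with Fk and 8.98, 9.45 and 9.52 with vehicle. Its replicate 3 cultures were much the highest at 48 h in both conditions. The change was -1.49 ± 0.47 with Fk (SE, n = 3 per group, adjusted p = 0.0424) and -1.97 ± 0.47 with vehicle (adjusted p = 0.0156). AURKB, the enzyme of the chromosomal passenger complex, read 8.22, 8.90 and 9.33 with Fk and 8.58, 8.93 and 9.28 with vehicle at 48 h. It read 9.97, 9.95 and 10.76 with Fk and 10.18, 9.99 and 10.30 with vehicle at 12 h. All 6 arrays at 48 h lay below all 6 at 12 h, and AURKB fell 2.65-fold with Fk and 2.34-fold with vehicle (adjusted p = 0.0103 and 0.0192).

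CDK1, the kinase that cyclin B activates to start mitosis, had one of the less certain changes on its brightest probe set. It read 9.96, 10.85 and 11.44 in Fk and 10.12, 10.80 and 11.33 in control cultures at 48 h, and 11.76, 11.88 and 12.04 in Fk and 11.83, 11.74 and 11.66 in control cultures at 12 h. The gap between the times was smallest at replicate 3. CDK1 fell with Fk (-1.15 ± 0.36, adjusted p = 0.0419) and did not pass with vehicle (-0.99 ± 0.36, adjusted p = 0.0712). Without Fk 48 h replicate 1 the change with Fk was -0.75, which did not pass (adjusted p = 0.138). The dimmer probe sets of CDK1 changed more, by -1.49, -1.32 and -1.24 with Fk and by -1.45, -1.43 and -1.36 with vehicle. NEK2, which separates the centrosomes, read 8.49, 9.03 and 9.64 with Fk and 8.46, 8.70 and 9.25 with vehicle at 48 h. It read 9.94, 10.09 and 10.75 with Fk and 9.67, 9.88 and 9.77 with vehicle at 12 h, and it fell in both conditions. AURKA, the spindle pole kinase, and the checkpoint kinases BUB1 and BUB1B also fell in both, with changes between -1.56 (BUB1B with Fk) and -0.86 (BUB1 with vehicle). The checkpoint kinase TTK fell with Fk (-1.46) and had -1.24 with vehicle (adjusted p = 0.0616).

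Of the cyclins and CDC25C, 4 of 4 fell with Fk (median -1.39) and 3 of 4 with vehicle (median -0.995). CCNA2, cyclin A2 of S and G2 phase, read 8.61, 9.62 and 10.48 in Fk and 8.87, 9.32 and 10.23 in control cultures at 48 h. It read 11.09, 11.35 and 11.37 in Fk and 10.96, 11.12 and 11.03 in control cultures at 12 h. The 12 h cultures lay close together and the 48 h cultures spread over more than 1 log2 unit. CCNA2 fell 3.25-fold with Fk and 2.96-fold with vehicle. CCNB1, the partner of CDK1, read 10.78, 11.43 and 11.88 with Fk and 10.83, 11.43 and 11.95 with vehicle at 48 h, nearly the same values number by number. At 12 h it read 12.29, 12.72 and 12.91 with Fk and 12.49, 12.65 and 12.60 with vehicle. It fell 2.42-fold with Fk and 2.26-fold with vehicle, and CCNB2 fell 1.81-fold and 1.76-fold.

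CDC25C, the phosphatase that activates CDK1, had the smallest change of all members in control cultures on the probe sets used. At 48 h it read 6.71, 7.22 and 7.28 with Fk and 6.87, 7.23 and 7.59 with vehicle, and at 12 h 7.76, 8.17 and 9.76 with Fk and 7.90, 7.71 and 7.59 with vehicle. A single array, Fk 12 h replicate 3, stood far above the rest. The change was -1.49 ± 0.43 with Fk (adjusted p = 0.0308) and -0.50 ± 0.43 with vehicle (adjusted p = 0.427, interval -1.45 to 0.44). With Fk it was -0.89 without that array, and 10 of the 12 fits that left out 1 array kept its adjusted p under the threshold.

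Among anaphase regulators, 3 of 4 fell in each condition, with medians of -1.14 with Fk and -1.16 with vehicle. ESPL1 encodes separase, the protease that cuts cohesin. It read 7.33, 7.89 and 8.28 in Fk and 7.50, 7.81 and 8.29 in control cultures at 48 h, and 8.82, 9.23 and 9.11 in Fk and 9.21, 9.13 and 9.13 in control cultures at 12 h. The groups of the 2 times did not overlap, and ESPL1 fell 2.33-fold with Fk (adjusted p = 0.00795) and 2.44-fold with vehicle (adjusted p = 0.00685). CDC20, which activates the anaphase-promoting complex, read 10.27, 10.45 and 10.84 with Fk and 10.25, 10.44 and 10.84 with vehicle at 48 h, so that same-numbered cultures differed by 0.0218 at most. At 12 h it read 11.44, 11.59 and 12.20 with Fk and 11.41, 11.60 and 11.86 with vehicle. CDC20 fell 2.33-fold with Fk and 2.16-fold with vehicle (adjusted p = 0.00668 and 0.0107).

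UBE2C, the ubiquitin-conjugating enzyme of that complex, was the member of the group that passed in neither condition. It read 10.90, 11.60 and 12.55 with Fk and 11.10, 11.38 and 12.03 with vehicle at 48 h, and 12.47, 12.38 and 13.00 with Fk and 12.41, 12.39 and 12.77 with vehicle at 12 h. Its Fk arrays of the 2 times overlapped, since replicate 3 at 48 h lay above replicates 1 and 2 at 12 h. The change was -0.93 ± 0.38 with Fk (adjusted p = 0.102) and -1.02 ± 0.38 with vehicle (adjusted p = 0.0806). PTTG1, securin, fell by 1.06 with Fk and by 1.20 with vehicle.

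Kinetochore and checkpoint genes ranged from -2.69 to -0.70 with Fk. Of 7, 6 fell with Fk (median -1.51), and with vehicle 3 of 7 (median -1.13), although all 7 had control arrays that did not overlap between the times. SPC25, a subunit of the NDC80 complex that holds microtubules, had the largest change of all members on the probe sets used. It read 6.89, 8.29 and 8.69 in Fk and 7.28, 7.80 and 9.01 in control cultures at 48 h, against 10.30, 10.64 and 11.00 in Fk and 10.22, 10.36 and 10.19 in control cultures at 12 h. Every culture at 48 h lay more than 1 log2 unit below every culture at 12 h. The fall was 6.43-fold with Fk (adjusted p = 0.00494) and 4.69-fold with vehicle (adjusted p = 0.0115). CENPE, the kinetochore motor that carries chromosomes to the spindle equator, read 7.31, 7.79 and 7.93 with Fk and 7.05, 7.51 and 8.24 with vehicle at 48 h. At 12 h it read 9.08, 9.31 and 9.94 with Fk and 9.21, 9.07 and 9.21 with vehicle. It fell 3.40-fold with Fk and 2.95-fold with vehicle (adjusted p = 0.00387 and 0.00709).

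CENPA, the histone H3 variant of centromeres, read 7.40, 8.09 and 8.67 in Fk and 7.70, 7.99 and 8.45 in control cultures at 48 h, and 8.88, 8.82 and 9.63 in Fk and 8.47, 8.84 and 8.94 in control cultures at 12 h. In control cultures the highest value at 48 h came just below the lowest at 12 h. CENPA fell with Fk (-1.06, adjusted p = 0.0433) and had -0.71 with vehicle (adjusted p = 0.153). MAD2L1, the checkpoint protein that restrains CDC20, read 10.53, 11.32 and 11.96 with Fk and 10.77, 11.35 and 11.78 with vehicle at 48 h. It read 12.54, 12.64 and 12.66 with Fk and 12.18, 12.33 and 12.16 with vehicle at 12 h. MAD2L1 fell with Fk (-1.34, adjusted p = 0.0169) and had -0.93 with vehicle (adjusted p = 0.0673). NDC80, the namesake of the complex, fell in both, with an adjusted p of 0.04999 in control cultures, and its partner NUF2 fell with Fk and had -1.14 with vehicle (adjusted p = 0.0982). CENPF, a large kinetochore protein, had -0.70 with Fk and -1.07 with vehicle (adjusted p = 0.188 and 0.0594).

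Among kinesins, the motors of the spindle, 5 of 5 fell with Fk (median -1.75) and 4 of 5 with vehicle (median -1.41). KIF11, which slides spindle poles apart, read 7.61, 8.76 and 9.23 in Fk and 7.95, 8.59 and 9.42 in control cultures at 48 h. At 12 h it read 10.36, 10.59 and 10.52 in Fk and 10.30, 10.38 and 10.28 in control cultures. The 12 h cultures lay close together while those at 48 h spread over more than 1 log2 unit. KIF11 fell 3.89-fold with Fk and 3.18-fold with vehicle (adjusted p = 0.00887 and 0.0182). KIF4A, a motor bound to chromosome arms and the central spindle, read 8.05, 8.79 and 9.10 with Fk and 8.42, 8.66 and 9.31 with vehicle at 48 h. It read 10.04, 10.29 and 10.44 with Fk and 10.04, 10.35 and 10.21 with vehicle at 12 h, and it fell 3.05-fold and 2.65-fold (adjusted p = 0.00419 and 0.00793).

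KIF23, the motor of the central spindle that positions the cleavage furrow, had the least certain change of the kinesins in control cultures. It read 7.51, 8.55 and 9.11 in Fk and 7.68, 8.85 and 9.44 in control cultures at 48 h, and 9.81, 10.18 and 10.61 in Fk and 9.96, 9.96 and 10.01 in control cultures at 12 h. Replicate 1 at 48 h lay more than 1 log2 unit below replicates 2 and 3 in both conditions. KIF23 fell with Fk (-1.81 ± 0.46, adjusted p = 0.0206) and had -1.32 ± 0.46 with vehicle (adjusted p = 0.0664). A dimmer probe set of KIF23 had -0.72 with Fk, which did not pass in the fit without shared probe sets, and -1.42 with vehicle. KIF20A, which acts in cytokinesis, and KIF2C, which takes microtubule ends apart, fell in both conditions, with changes between -1.75 (KIF20A with Fk) and -1.15 (KIF2C with vehicle).

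BIRC5, survivin, is the chromosomal passenger that was tested. It read 8.64, 9.57 and 9.91 in Fk and 8.93, 9.36 and 9.96 in control cultures at 48 h, against 10.79, 11.17 and 11.59 in Fk and 10.89, 11.27 and 11.15 in control cultures at 12 h. No array of one time reached the other. BIRC5 fell 3.52-fold with Fk and 3.22-fold with vehicle (adjusted p = 0.00623 and 0.00905). The changes of its dimmer probe sets ran from -3.22 to -1.35 with Fk and from -2.96 to -1.29 with vehicle.

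Spindle assembly factors fell in 5 of 6 cases in each condition, with medians of -1.23 with Fk and -1.15 with vehicle. TPX2, which activates AURKA on the spindle, read 10.33, 10.89 and 11.06 with Fk and 10.47, 10.85 and 11.25 with vehicle at 48 h, and 11.72, 11.84 and 12.02 with Fk and 11.84, 11.90 and 11.81 with vehicle at 12 h. It fell 2.14-fold and 1.99-fold (adjusted p = 0.00746 and 0.0123). ASPM, a spindle pole protein, read 9.22, 9.98 and 10.61 with Fk and 9.38, 9.90 and 10.45 with vehicle at 48 h. At 12 h it read 11.27, 11.65 and 11.50 with Fk and 11.36, 11.38 and 11.26 with vehicle. The groups of the 2 times did not overlap for either gene, and ASPM changed by -1.54 and -1.42 and fell in both conditions. NUSAP1, which bundles microtubules, read 10.76, 11.30 and 11.65 with Fk and 11.17, 11.42 and 11.83 with vehicle at 48 h, and 12.00, 12.26 and 12.49 with Fk and 12.15, 12.20 and 11.98 with vehicle at 12 h. NUSAP1 fell with Fk (-1.01, adjusted p = 0.0147) and had -0.63 with vehicle (adjusted p = 0.0833).

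PRC1, which crosslinks the microtubules of the spindle midzone, read 8.93, 9.75 and 10.28 in Fk and 9.38, 9.89 and 10.29 in control cultures at 48 h. It read 10.51, 10.80 and 10.70 in Fk and 10.97, 11.04 and 10.99 in control cultures at 12 h, and fell in both conditions. Its change with Fk was -1.02, and -0.66 without Fk 48 h replicate 1, which did not pass (adjusted p = 0.117). HMMR fell in both, and DLGAP5, a microtubule-binding spindle protein, fell with vehicle (-1.47) and had -1.36 with Fk (adjusted p = 0.0507), the member that passed in control cultures and not in Fk cultures.

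The cytokinesis genes differed in certainty. ANLN, the scaffold of the contractile ring, read 9.62, 10.52 and 11.60 in Fk and 10.07, 10.78 and 11.71 in control cultures at 48 h, and 12.57, 12.77 and 12.66 in Fk and 12.40, 12.55 and 12.57 in control cultures at 12 h. Its replicates at 48 h spread over 1.98 log2 units with Fk, the widest range of the members there, and replicate 1 was lowest in both conditions. ANLN fell 4.25-fold with Fk and 3.15-fold with vehicle (adjusted p = 0.0123 and 0.0318). ECT2, the exchange factor that activates RhoA at the furrow, read 10.31, 10.76 and 11.67 with Fk and 10.52, 11.50 and 11.54 with vehicle at 48 h, and 11.89, 12.22 and 11.73 with Fk and 11.95, 12.16 and 12.13 with vehicle at 12 h. Replicate 3 at 48 h nearly reached the 12 h cultures with Fk, and ECT2 passed in neither condition (-1.04 with Fk and -0.89 with vehicle, adjusted p = 0.0551 and 0.0923).

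FOXM1, the transcription factor that acts on many of the other members, had the smallest p of all members in control cultures. It read 7.33, 7.93 and 7.95 with Fk and 7.02, 7.47 and 8.10 with vehicle at 48 h, against 9.01, 9.31 and 9.26 with Fk and 9.09, 9.13 and 9.04 with vehicle at 12 h. It fell 2.75-fold with Fk and 2.94-fold with vehicle (adjusted p = 0.00402 and 0.00329). TOP2A, the topoisomerase that untangles chromosomes, read 11.15, 11.51 and 12.47 with Fk and 11.58, 11.94 and 12.34 with vehicle at 48 h, and 12.74, 12.92 and 12.71 with Fk and 13.02, 12.86 and 12.77 with vehicle at 12 h. The times came close at replicate 3 but did not overlap, and TOP2A fell 2.11-fold and 1.90-fold (adjusted p = 0.0271 and 0.0489).

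**Figure D3:**
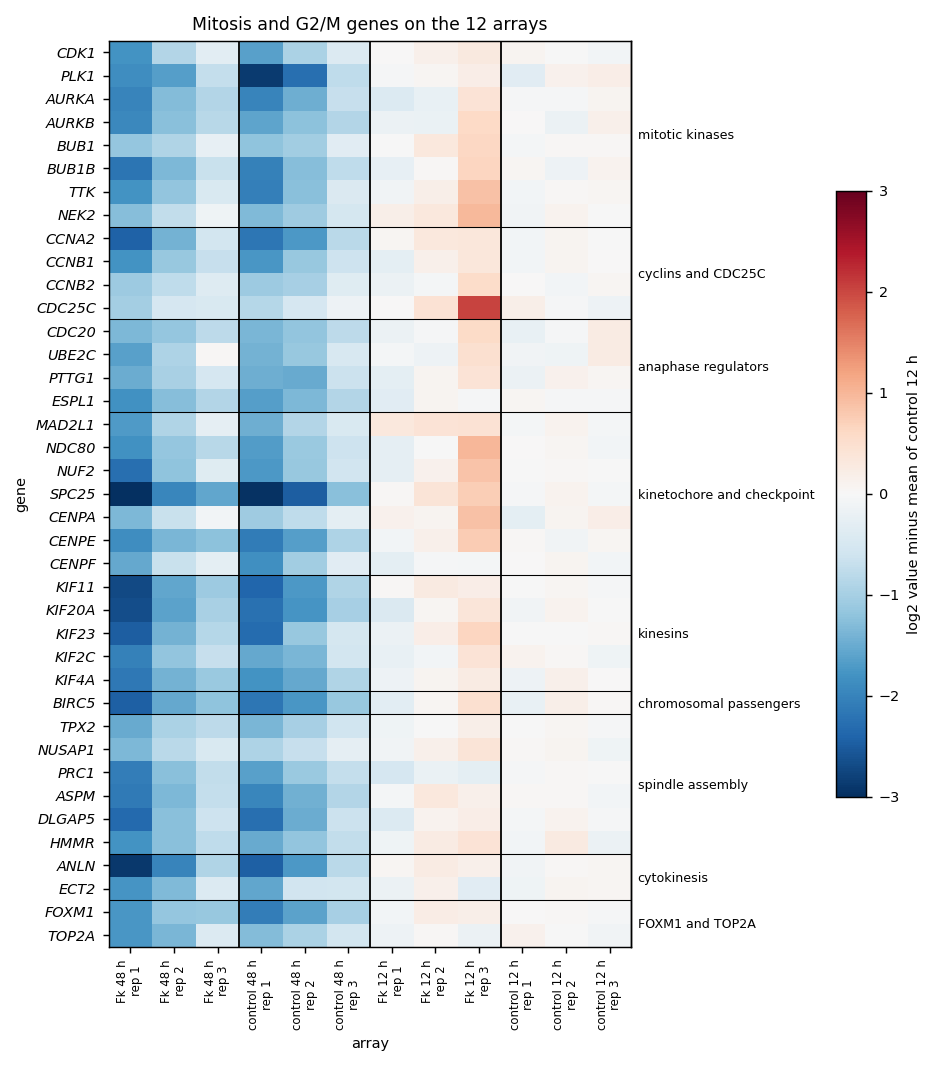
Log2 value of 39 members (rows, by role) on the 12 arrays (columns), minus the gene's mean over the control arrays at 12 h. The 48 h arrays are blue, most of all replicates 1, the control arrays at 12 h are near white, and Fk 12 h replicate 3 is redder than its 2 companions, most in CDC25C; SPC25 in Fk 48 h replicate 1 lies beyond the end of the colour scale.

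The number of members past the threshold depended on single arrays. In control cultures the 28 calls became 12, 9 and 10 without control 12 h replicate 1, 2 or 3, 8 without control 48 h replicate 1 or 2, and 35 without control 48 h replicate 3. In Fk cultures the 35 calls became 16 and 18 without Fk 48 h replicate 1 or 2. CDC20, ESPL1, SPC25, CENPE, KIF4A, BIRC5, TPX2 and FOXM1, 8 members, passed in control cultures under each of the 12 fits that left out 1 array, and 16 members did so in Fk cultures. All 39 members stayed negative in both conditions under each of these fits, and the change closest to 0 was -0.32 with vehicle and -0.34 with Fk. Where the arrays of the 2 times did not overlap, leaving out 1 array could not turn the sign. Such members were all 39 with vehicle and 37 with Fk.

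Replicate numbers ordered the members at 48 h. Replicate 1 was the lowest of its group for 39 of 39 members in Fk and 38 of 39 in control cultures, and replicate 3 was the highest for 39 of 39 in each. PTTG1 was the exception, with replicate 2 lowest in control cultures. Both held together for 100% and 97.4% of members, against 24.6% and 22.6% of all tested genes. The range over the 3 cultures of a group had a member median of 1.26 in Fk and 1.03 in control cultures at 48 h, and of 0.62 in Fk and 0.17 in control cultures at 12 h. All tested genes had 0.42, 0.41, 0.46 and 0.24 in the same groups. DNA replication and G1/S genes shared the order at 48 h in 75.6% of cases with Fk and 80.5% with vehicle. Over all genes, deviations from the group mean correlated between same-numbered Fk and control arrays at 0.80, -0.03 and 0.61 at 48 h for replicates 1 to 3, and at 0.04, 0.27 and 0.16 at 12 h. The labels do not say what a number stands for.

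**Figure D4:**
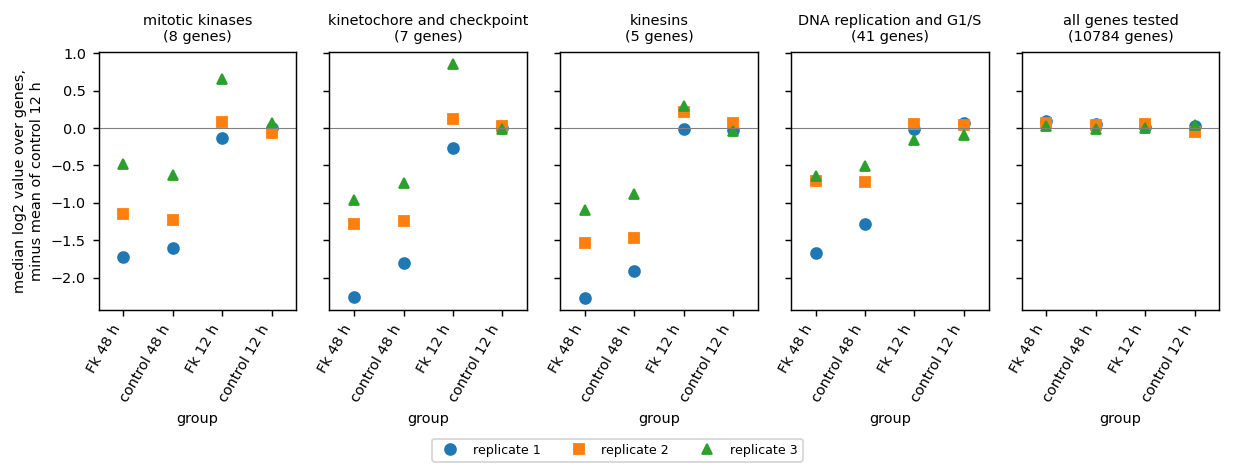
Median log2 value over genes on each array (y axis), minus the mean of that median over the control arrays at 12 h. Panels show mitotic kinases, kinetochore and checkpoint genes, kinesins, DNA replication and G1/S genes, and all 10784 tested genes. Within each 48 h group the 3 gene groups of mitosis are ordered replicate 1, 2, 3 upwards, and all tested genes stay near 0.

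No member passed the test between Fk and control cultures at 48 h. By limma 0 of 39 members passed, and 0 had an unadjusted p under 0.05, where 0% of all genes passed and 5.18% had such a p. Of the members, 16 had a positive and 23 a negative difference, with a median of -0.04 and a range from -0.27 (ECT2) to +0.56 (PLK1). The groups overlapped for all 39, where 6.14% of all genes were higher and 4.02% lower without overlap. The 95% interval of a member's difference had a median half-width of 0.755, and for 25 of 39 members it lay within 1 log2 unit of 0 on both sides. This fit did not pair replicate numbers. With a block for the replicate number within time the median half-width was 0.359. Then 0 of 39 members passed and 2 had an unadjusted p under 0.05, where 9.12% of all genes did. Mitotic kinases had a median difference of +0.05, kinetochore and checkpoint genes one of -0.03, and kinesins one of -0.14, with all 5 kinesins negative, from -0.27 to -0.08.

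The 3 members with the smallest p in each direction at 48 h were PLK1, FOXM1 and NEK2, with positive values, and NUSAP1, TOP2A and ECT2, with negative ones. PLK1 had +0.56 ± 0.47 (SE, interval -0.47 to 1.59, adjusted p = 0.9999), which ran from 0.11 without control 48 h replicate 1 to 1.16 without control 48 h replicate 3. FOXM1 had +0.21 ± 0.25 and NEK2 +0.25 ± 0.31. NUSAP1 had -0.24 ± 0.24, TOP2A -0.25 ± 0.30 and ECT2 -0.27 ± 0.35. In this fit, which did not pair replicate numbers, each of the 6 differences was about the size of its standard error. With the replicate block PLK1 had +0.56 ± 0.19 (SE, interval 0.10 to 1.02, adjusted p = 0.457). ANLN, which is not among the 6, had -0.27 ± 0.10 with that block (adjusted p = 0.511). CDK1 differed by 0.0017 (interval -0.79 to 0.79) and CCNB1 by -0.04 (interval -0.74 to 0.67). Their dimmer probe sets were farther from 0, at +0.19, +0.27 and +0.16 for CDK1 and -0.42 for CCNB1, given with no test.

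Within replicate numbers at 48 h, the sign of the members' difference turned from number to number. Of 39 members, 10 were higher with Fk at replicate 1 (median -0.17), 26 at replicate 2 (median +0.08) and 19 at replicate 3 (median -0.01), while the median over all tested genes lay between -0.001 and 0.03. Of the mitotic kinases, 5, 6 and 6 of 8 were higher with Fk, with medians of +0.02, +0.11 and +0.07. Kinetochore and checkpoint genes were higher in 2, 4 and 4 of 7 cases, with medians of -0.24, +0.10 and +0.05. Kinesins were higher in 0, 4 and 1 of 5 cases, with medians of -0.36, +0.15 and -0.20. The difference was positive at every number for 5 members and negative at every number for 7. The same tally over all tested genes is not given here, so the 5 and the 7 are not read as a result about the members. PLK1, one of the 5, differed by +1.01, +0.62 and +0.05, and KIF23, one of the 7, by -0.16, -0.30 and -0.33. These are single differences between 2 arrays, given with no test.

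**Figure D5:**
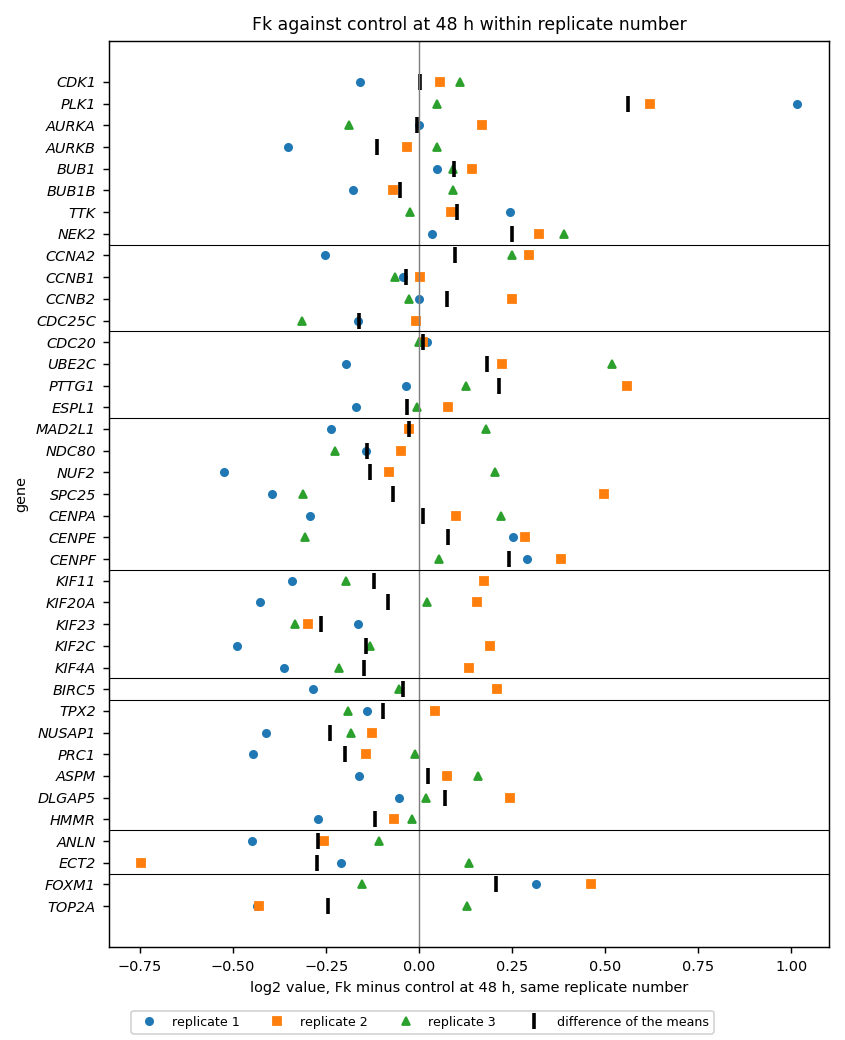
Fk minus control at 48 h (x axis, log2) for each of 39 members within replicate 1 (circles), 2 (squares) and 3 (triangles), with the difference of the group means as a bar. Points fall on both sides of 0, with PLK1 at replicate 1 the farthest at +1.01.

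At 12 h again 0 of 39 members passed between Fk and control, and 0 had an unadjusted p under 0.05, where 0% of all genes passed and 6.71% had such a p. The difference was positive for 32 and negative for 7, with a median of +0.12 and a range from -0.33 (PRC1) to +0.83 (CDC25C). Kinetochore and checkpoint genes had a median of +0.28, cyclins and CDC25C one of +0.17, mitotic kinases one of +0.15 and kinesins one of +0.05. Much of this rested on 1 array. On Fk 12 h replicate 3, 36 of 39 members lay above the mean of replicates 1 and 2, by a median of 0.47 and by up to 1.80 (CDC25C), against a median of 0.008 over all genes. Without that array the median difference of the members was -0.04.

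That array stood apart from all others in the whole data. It correlated with the rest of its group at 0.942 to 0.946, against 0.994 between replicates 1 and 2. A control probe set of 28S ribosomal RNA read 12.22 on it, against 9.18 to 10.24 elsewhere. The other control probe sets of ribosomal RNA did not set it apart. They read 1.69 on it, against 1.67 to 1.69 elsewhere, and 8.56, against 6.94 to 9.28. The part of the array's difference in the members' values was not tested. DNA replication and G1/S genes were not raised on it: their median log2 value was 10.17, 10.23 and 10.01 on Fk replicates 1 to 3, where that of the members was 10.51, 10.81 and 11.11.

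Arrays of Fk and control did not overlap at 12 h for NEK2 and MAD2L1, which were higher with Fk, and PRC1, which was lower, where 9.91% of all genes were higher and 6.49% lower without overlap. The differences were +0.48 ± 0.31 for NEK2 (SE, adjusted p = 0.791), +0.39 ± 0.33 for MAD2L1 (adjusted p = 0.821) and -0.33 ± 0.31 for PRC1 (adjusted p = 0.836). CDC25C had +0.83 ± 0.43 (adjusted p = 0.760), with overlapping groups, and +0.23 without Fk 12 h replicate 3. ESPL1 and ECT2, the other negative members with the smallest p, had -0.10 ± 0.25 and -0.13 ± 0.35.

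A difference of the Fk effect between the times was not found for any member. This contrast also tests whether the time courses of Fk and control cultures differ: 0 of 39 members passed, 0 had an unadjusted p under 0.05, where 0% of all genes passed and 3.31% had such a p. The members had a median difference of -0.15 with a median half-width of 1.07, so the larger number of calls with Fk is not shown to be a larger fall.

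Other genes of the cell cycle moved in the same direction. Of 77 other tested mitosis genes, 55 fell and 2 rose with Fk (median -1.23), and 44 fell and 1 rose with vehicle (median -0.97). CDC25A, the phosphatase that drives S phase entry, averaged 5.76 ± 0.11 in control cultures at 48 h and 7.90 ± 0.05 at 12 h (SD, n = 3 each), a change of -2.14 (adjusted p = 8.8e-05). SPC24, the partner of SPC25, changed by -1.50 and CCNF, cyclin F, by -1.81. Of 41 DNA replication and G1/S genes, 33 fell with Fk (median -1.26) and 28 with vehicle (median -1.09), and 0 rose in either. Among these, cyclin E1 (CCNE1) changed by -2.15, the polymerase subunit gene POLA1 by -1.22 and the origin firing factor gene MCM10 by -3.20 in control cultures.

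Of 14 tested genes of the DREAM and MYBL2-MuvB complexes and NF-Y, 4 fell and 2 rose in control cultures, with a median of +0.17, where 10.9% of all genes fell and 10.6% rose, and E2F4 and LIN54 were below the level. MYBL2, the activating partner of MuvB, fell to 8.78 ± 0.42 at 48 h, against 10.50 ± 0.07 at 12 h (SD, n = 3 each, adjusted p = 0.00329). The E2F partner gene TFDP1 (-1.28), the MuvB subunit gene LIN9 (-0.81) and the NF-Y subunit gene NFYB (-0.69) also fell. The MuvB subunit gene LIN37 (+0.98) and E2F5 (+0.66), which encodes an E2F of the repressive kind, rose. With Fk, LIN37 had +0.58 (adjusted p = 0.119) and E2F5 +0.64 (adjusted p = 0.0353). RBL2, the RB-like protein p130 of DREAM, had +0.63 with Fk (adjusted p = 0.0288) and +0.45 with vehicle (adjusted p = 0.0932). The RB-like gene RBL1 went the other way, with -0.74 with Fk (adjusted p = 0.0512) and -0.31 with vehicle (adjusted p = 0.380). LIN9, NFYB, LIN37, E2F5, RBL2 and RBL1 were named after their values were seen.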

How the data were processed

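RNA of 12 HK-2 cultures was measured on Affymetrix arrays, 1 per culture. The authors deposited log2 values of 54675 probe sets made with GCRMA, per the submitters' processing notes for the method and by the range of the values for the scale. The method corrects for background by probe sequence and equalizes the distributions of arrays. Its version, and whether other arrays were included, are not given in the sources used here. Each gene took its brightest among the 41097 probe sets of 1 symbol, and had to reach 4 on 3 arrays or more. Array medians ran from 2.85 to 2.94, and the number of arrays limits the precision.

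All 4 groups entered a single limma fit (version 3.58.1, R 4.3.3) with moderation by eBayes (prior degrees of freedom 2.44, residual 8). Its two-sided p-values were adjusted by Benjamini-Hochberg over 10784 genes, and its intervals cover 95%. P-values measure the spread between these cultures. The members, lists and the rule for named genes were chosen with earlier results of these data known. The rule took the 2 smallest and the largest p of each group in the control time course, the 3 smallest p per direction of each Fk comparison, and 6 genes always. Promoters came from RefSeq tables. The 27 alternative settings comprised 23 planned and 4 added after seeing the data. The fit was tested on simulated data. Python 3.11.15 (pandas 2.3.3, matplotlib 3.10.9) drew the figures.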

Additional observations from a re-analysis of the deposited data

How the results depend on the processing

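The median changes of the members moved by less than 1 SD under all 27 settings. This SD, 0.473, is that of the members' median between arrays of a group, pooled over the 4 groups. Leaving out 1 of 3 arrays can hardly move a group's mean by that much, so the 12 such fits were a weak check. With Fk over time the median ran from -1.63 to -1.02, and with vehicle from -1.45 to -0.96. For Fk against control it ran from -0.32 to +0.29 at 48 h and from -0.04 to +0.24 at 12 h, and so took both signs at each time. No member rose in either time course under any setting, and no member passed between Fk and control. Counts moved more, with causes that were not tested, except that fits leaving out arrays hold fewer samples and that without shared probe sets 31 members remained. Members that fell numbered 19 with Fk and 13 with vehicle without a filter on low values, 23 and 18 without probe sets ending in _s_at, _x_at or _a_at, 11 with Fk in a fit to the groups compared alone, 20 with Fk without both 48 h arrays numbered 1, and 10 and 1 without both numbered 2. Leaving out 1 array gave 16 to 38 with Fk and 8 to 36 with vehicle. All genes called over time numbered 5345 with Fk and 4920 with vehicle under array weights (gene-by-gene estimates, weight 0.121 for Fk 12 h replicate 3), 831 with Fk from the groups compared alone, 1539 with vehicle without shared probe sets, 1371 and 1331 without the 48 h arrays numbered 1, and 1014 and 693 without those numbered 2, and 1294 to 2790 with Fk and 1060 to 3445 with vehicle when 1 array was left out. All genes called at 48 h numbered 94 with array weights, 4 with the mean of a gene's probe sets, 1 without the filter, with a level of 6 or with the groups compared alone, 4 with a replicate block without Fk 12 h replicate 3, and 0 to 1 with 1 array left out. At 12 h they numbered 156 with array weights, 1 with a replicate block within time, 3 with that block without Fk 12 h replicate 3, and 0 to 2 with 1 array left out.

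Whether the replicate numbers pair the samples was not settled, and the main fit did not pair them. At 48 h same-numbered Fk and control arrays deviated together at replicates 1 and 3 (correlations 0.80 and 0.61) and not at replicate 2 (-0.03). With the replicate as a random block (correlation 0.33), 37 members fell with Fk and 33 with vehicle. The share of all genes called in that fit is not given here, so these counts are not read as a result about the members. With the replicate as a fixed block, 0 members passed between Fk and control. In that fit 4 members at 12 h and 2 at 48 h had an unadjusted p under 0.05, where 11.7% and 9.12% of all genes did. Some named genes, none past the threshold, changed sign between Fk and control. At 12 h ECT2 turned to 0.0042 with the block without Fk 12 h replicate 3, and ESPL1 ran from -0.19 to 0.014 with 1 array left out (positive without Fk 12 h replicate 1). With 1 array left out at 48 h, TOP2A ran from -0.63 to 0.034 and ECT2 from -0.66 to 0.027 (positive without Fk 48 h replicate 1), NEK2 from -0.044 to 0.53 (negative without Fk 48 h replicate 3), and FOXM1 from -0.049 to 0.49 (negative without control 48 h replicate 1). The 95% interval of a member's difference between Fk and control reached 0.755 to either side at the median, and 0.359 with the replicate block, where that of PLK1 at 48 h ran from 0.10 to 1.02 and that of ANLN from -0.52 to -0.02 (adjusted p = 0.457 and 0.511).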
